A study of Mus musculus with 14 samples.

Results

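Sorted mouse cortical microglia were compared between day 90 and day 60 after focal ischemic stroke, the latest times in a series that also holds sham, day 1, day 3, day 7 and day 21. The comparison used 4 of the 14 libraries, 2 at day 60 and 2 at day 90, picked by their labels, and no sham library entered it. All 4 were made from cortical cells of C57BL/6 animals. The labelled age was 8 to 10 weeks at both times, which cannot be the age at collection on day 90. Age at collection is thus not known and may have differed between the groups along with time. In these mice the distal middle cerebral artery had been tied off for good and both common carotid arteries had been closed for 7 min. Both groups thus carried the same injury, and their labels differed in time alone. An effect of age at collection cannot be told apart from one of time here. The cells were taken by fluorescence-activated sorting. The labels do not state the gate's markers or how many mice went into a library. Nor do they state whether replicates are separate animals, so p-values measure only the spread between these libraries, which may be technical.

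Microglia are the resident macrophages of the brain, and after a stroke they clear debris and release cytokines together with macrophages and granulocytes that enter from the blood. Type I interferon, such as interferon beta, binds the receptor Ifnar1/Ifnar2 and acts through the kinases Jak1 and Tyk2 on transcription factors, Stat2 and Irf9 among them, that bind a DNA element called the interferon-stimulated response element in front of target genes. Neutrophil granule proteins are made in order as the cells mature, the primary granule enzymes in early precursors and the secondary granule proteins later, and mature neutrophils no longer make most of them.

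Total counts were 27842666 and 183895519 in replicates 1 and 2 of day 60 and 28758420 and 191692779 in those of day 90, so the second library was 6.60 and 6.67 times as deep as the first. The first principal component of the 4 libraries (57.9% of the variance) separated the replicate numbers and the second (33.8%) separated the days. Of 13335 genes tested, edgeR's quasi-likelihood test called 0 (0% of the genes tested; smallest Benjamini-Hochberg adjusted p = 0.124), with 2407 (18.1%) at an unadjusted p under 0.05, 1147 of them (8.6%) higher and 1260 (9.45%) lower at day 90. DESeq2 called 1133 genes (8.5%), 412 higher (3.09%) and 721 lower (5.41%), and limma-voom called 0, with 2801 at an unadjusted p under 0.05. With 1 residual degree of freedom left, and the lone library assumed to vary like the other group, the edgeR test called 1163 genes without replicate 1 of day 60, 130 without replicate 2 of day 60, 55 without replicate 1 of day 90 and 17 without replicate 2 of day 90. An exact permutation test of 2 libraries against 2 cannot go below p = 0.333 (two-sided), so for single genes the values of the 4 libraries are given, and a gene is said to be higher or lower when both day 90 libraries lay on the same side of both day 60 libraries. That held for 3762 genes on the higher side (28.2%) and 3162 on the lower side (23.7%), together 6924 (51.9%), and counts of list members below are to be read against these shares. The test had no term for the replicate number, so the difference between the numbers stayed in its spread. Counts with the number as a block stand in the section on processing dependence. A count of 0 called genes does not show that no gene differed.

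Because depth divides the replicate numbers, the ratio of day 90 to day 60 was also taken within each number. The log2 ratios of replicates 1 and 2 had the same sign for 82.0% of the genes (Pearson r = 0.60 across 13335 genes). Among the 7678 genes whose log2 CPM averaged 3 or more the sign was the same for 88.0% (r = 0.91 across genes, which share their libraries and are not replicates).

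**Figure D1:**
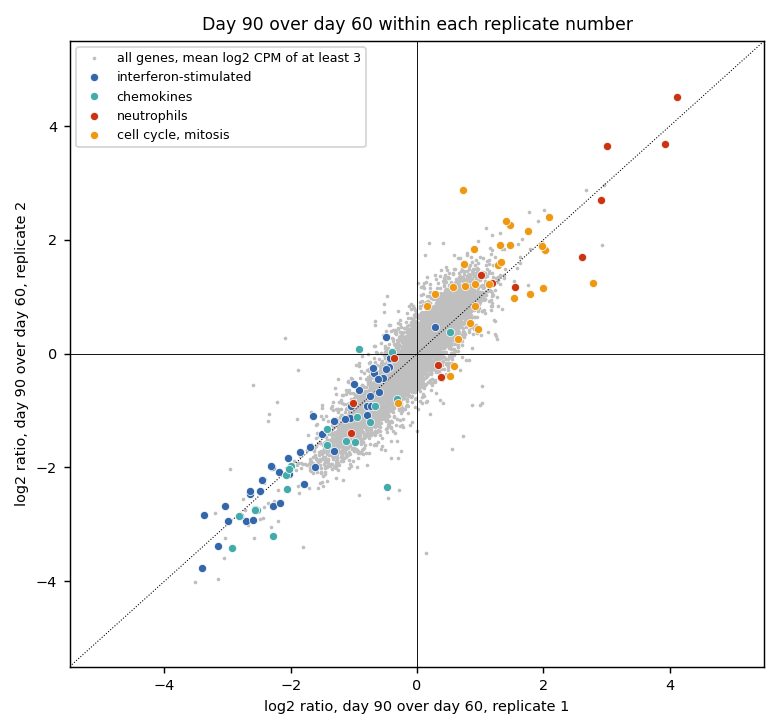
Log2 ratio of day 90 over day 60 in replicate 2 (vertical) against replicate 1 (horizontal); each point is a gene, grey for genes whose log2 CPM averaged 3 or more and coloured for 4 lists, and the dotted line marks equal ratios. Mpo sits at the far upper right (4.11 and 4.51) and most interferon-stimulated genes lie in the lower left.

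Fold changes also followed transcript length, and this touches several of the groups below. Among 7657 genes at that level with a known length, the 1532 shortest (351 to 1961 bases in the GENCODE annotation of GRCm38) had a median log2 fold change of -0.81 and the 1532 longest (5054 to 123179 bases) one of 0.35. A gene's length here is that of its longest annotated transcript, which need not be the one expressed. The rank correlation with length was 0.58 across genes, and 0.53 and 0.60 within replicates 1 and 2. Against the mean of the 4 libraries, levels followed length with rho = -0.18 and -0.57 in the day 60 libraries and 0.51 and 0.35 in those of day 90. The source of this trend was not tested. A second fit removed this trend from each library, an alternative added after the data were seen. It again called 0 genes in edgeR, with 1707 at an unadjusted p under 0.05, and its values stand below as length-adjusted. Over all genes the median log2 fold change was 0.04 in the main fit and 0.13 in the length-adjusted fit, and scaling by library totals alone raised it to 0.58.

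**Figure D2:**
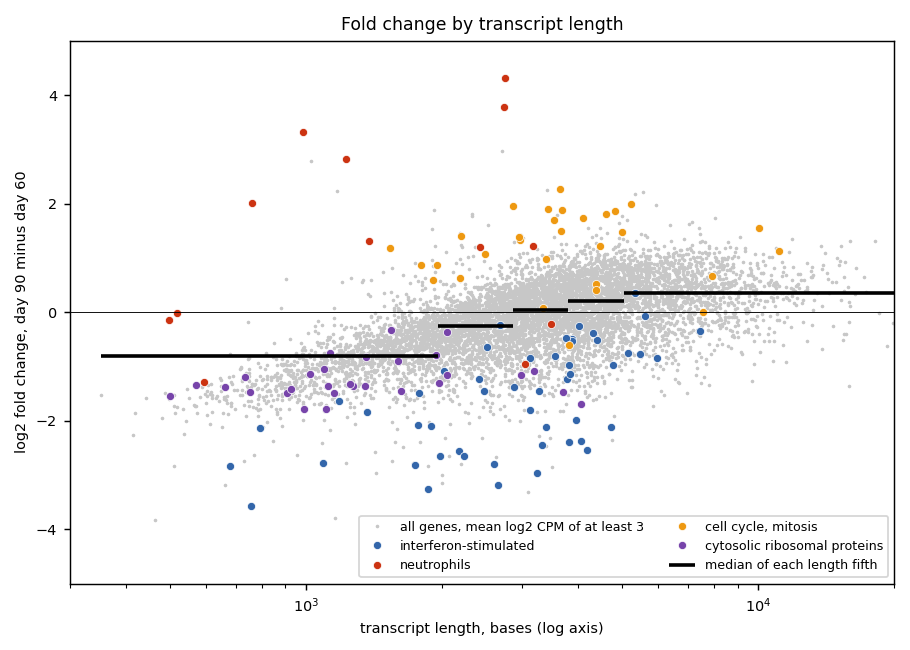
Log2 fold change of day 90 minus day 60 against transcript length (log axis, cut off before the longest transcripts); grey points are genes whose log2 CPM averaged 3 or more, coloured points are members of 4 lists, and black bars are the medians of 5 length classes. The bars climb from -0.81 to 0.35, and most ribosomal protein genes lie below the lowest bar (median -1.34). Most granulocyte and mitotic genes lie above the bars.

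Targets of interferon were lower at day 90 almost throughout. Of the 50 interferon-stimulated genes on the list, all tested, 40 were lower and 0 were higher at day 90 (23.7% and 28.2% of all genes), and 32 had an unadjusted edgeR p under 0.05 in the lower direction (9.45% of all genes). DESeq2 called 29 of them lower (5.41% of all genes) and 0 higher. Their median log2 fold change was -1.47, against 0.04 over all genes, and -1.22 length-adjusted. Of the members, 24 had a longest annotated transcript of at least 3301 bases, the median length. These 24 had a median of -0.83, and 20 of them were lower. In bulk RNA, fewer cells of a type and less RNA per cell cannot be told apart.

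Ifnb1, the gene of interferon beta itself, measured 26.8 and 19.0 CPM in the day 60 libraries and 1.63 and 1.81 CPM in those of day 90. Its log2 fold change was -3.73 ± 0.34 (SE; edgeR adjusted p = 0.124; DESeq2 adjusted p = 1.04e-19), and -2.50 length-adjusted. Both day 90 libraries were far below both day 60 libraries, by similar ratios in replicate 1 (log2 ratio -4.02) and replicate 2 (-3.38). The receptor chains lay on opposite sides. Ifnar1 measured 82.9 and 52.6 CPM at day 60 and 111 and 84.1 CPM at day 90 (log2 fold change 0.53 ± 0.35, edgeR adjusted p = 0.453). Ifnar2 measured 392 and 491 CPM, then 213 and 227 CPM (-1.004 ± 0.29, adjusted p = 0.234). Of the 22 genes of the list of interferon receptors and signalling, 9 were lower and 4 higher (23.7% and 28.2% of all genes). Their median of -0.21 turned to 0.34 when libraries were scaled by totals alone. The kinases Tyk2 and Jak1 were on the higher side, with log2 fold changes of 0.96 ± 0.29 and 0.50 ± 0.27 (edgeR adjusted p = 0.236 and 0.381). Socs1, a feedback inhibitor of Jak kinases, was lower (9.11 and 8.78 CPM, then 3.70 and 3.50 CPM; -1.31 ± 0.31, adjusted p = 0.233).

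Among the transcription factors, Irf7, a factor that amplifies interferon production, measured 558 and 779 CPM at day 60 and 70.2 and 102 CPM at day 90 (log2 fold change -2.96 ± 0.37, edgeR adjusted p = 0.16). The gap for Irf7 was nearly the same in both replicate numbers (log2 ratios -2.99 and -2.94) and did not shrink after length adjustment (-2.94). Stat2 and Irf9, which act together at target promoters, were lower by smaller amounts (-0.51 ± 0.26 and -0.49 ± 0.26), which turned to 0.0047 and 0.04 with total-count scaling.

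Effector genes with low values on the list are given next, chosen by size. Isg15, a ubiquitin-like protein that is joined to other proteins and the lowest of the 50 genes, measured 67.4 and 54.8 CPM at day 60 and 6.36 and 3.99 CPM at day 90 (log2 fold change -3.56 ± 0.36, edgeR adjusted p = 0.124; -2.24 length-adjusted). Rtp4 measured 225 and 175 CPM, then 25.3 and 16.8 CPM (-3.25 ± 0.37, adjusted p = 0.139; -2.78 length-adjusted). Ifit1 and Ifit3 encode proteins that bind viral RNA or its complexes. Ifit1 measured 188 and 86.9 CPM, then 18.1 and 12.2 CPM (-3.18 ± 0.50, adjusted p = 0.223). Ifit3 measured 199 and 195 CPM, then 30.5 and 25.4 CPM (-2.82 ± 0.29, adjusted p = 0.124), and 50.5% of its sampled 50-base words also occur in Ifit3b, so the reads of these copies may have been split. Ifitm3, which blocks virus entry at membranes, measured 757 and 1185 CPM, then 109 and 164 CPM (-2.83 ± 0.41, adjusted p = 0.218; -1.37 length-adjusted). In none of these genes did the day 60 and day 90 libraries overlap. The libraries overlapped in the other 10 list members, whose highest log2 fold change was 0.35.

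**Figure D3:**
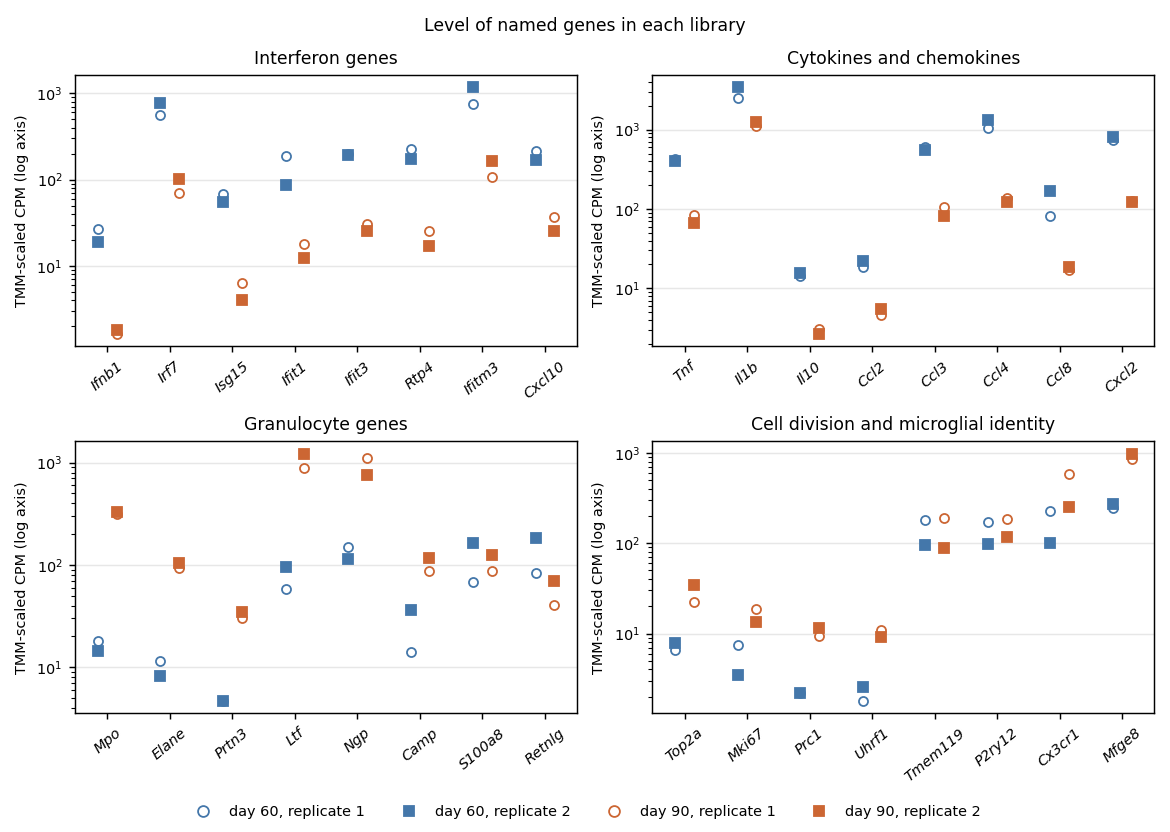
TMM-scaled CPM (log axis) of 32 genes in the 4 libraries, blue for day 60 and orange for day 90, open circles for replicate 1 and filled squares for replicate 2. The orange points lie below the blue ones for the interferon, cytokine and chemokine genes, above them for most granulocyte and cell division genes, and among them for Tmem119 and P2ry12.

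Promoter sequence was examined for the interferon list because its members stood on the same side. The 250 bases before the start were taken from RefSeq (GRCm38.p6) and searched on both strands for the core of the interferon-stimulated response element, read here as GAAA, any 2 bases and GAAA again. Of the 50 members 39 had a promoter in the table, and 20 of these (51.3%) held at least 1 match, against 367 of 10624 tested genes (3.45%) and 978 of 32851 windows in the whole table (2.98%). The 20 members with a match had a median log2 fold change of -1.44, with 13 lower, and the 19 without one had a median of -1.48, with 18 lower. These are counts of letters in a window and say nothing of binding. The 60-base windows below, all of them upstream of the start and read 5′ to 3′ on the gene's strand, show the match in capitals for genes with values in the text; where matches overlap, as in Isg15, each was counted.
Isg15, chr4:156200850-156200909, minus strand: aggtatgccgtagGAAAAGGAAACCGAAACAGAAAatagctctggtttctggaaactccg
Ifit1, chr19:34640779-34640838, plus strand: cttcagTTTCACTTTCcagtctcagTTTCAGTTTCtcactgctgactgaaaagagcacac
Ifit3, chr19:34583382-34583441, plus strand: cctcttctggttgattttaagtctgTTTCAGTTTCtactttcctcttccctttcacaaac
Cxcl10, chr5:92349068-92349127, minus strand: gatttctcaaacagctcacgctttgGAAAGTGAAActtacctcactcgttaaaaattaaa
B2m, chr2:122147523-122147582, plus strand: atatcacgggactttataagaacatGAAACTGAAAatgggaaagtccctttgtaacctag
Ifit1 and Ifit3 carry the element on the opposite strand, and the window of Ifit1 holds it at 2 places.

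Inflammatory cytokines and chemokines were lower at day 90 as well. Of the 22 chemokines 17 were lower and 1 (Cxcl14) was higher (23.7% and 28.2% of all genes), with a median log2 fold change of -1.48, and 16 had an unadjusted edgeR p under 0.05 in the lower direction (9.45% of all genes). Chemokine transcripts are short, 21 of the 22 below the median length, and their median was -0.74 length-adjusted. Of the 30 cytokines and targets of NF-kB, 20 were lower and 2 (Nfkb1 and Nos2) higher, with a median of -0.60, and -0.61 length-adjusted. Without 1 library each the medians ran from -1.14 to -1.87 for chemokines and from -0.66 to -0.87 for cytokines, and with total-count scaling they were -0.92 and -0.07.

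Tnf, a cytokine made early in inflammation, measured 425 and 406 CPM at day 60 and 82.8 and 65.9 CPM at day 90 (log2 fold change -2.48 ± 0.30, edgeR adjusted p = 0.15; -1.88 length-adjusted). Il1b, the gene of interleukin 1 beta, measured 2518 and 3455 CPM, then 1124 and 1251 CPM (-1.33 ± 0.33, adjusted p = 0.233; -0.52 length-adjusted). The anti-inflammatory cytokine Il10 was lower too, with 14.1 and 15.4 CPM, then 3.05 and 2.66 CPM (-2.37 ± 0.31, adjusted p = 0.171). Cytokines of opposite roles thus stood on the same side. Nfkbia, the inhibitor that NF-kB induces against itself, measured 1982 and 2745 CPM, then 679 and 830.3 CPM (-1.65 ± 0.34, adjusted p = 0.233).

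Of the chemokines, Ccl4 and Ccl3, which attract monocytes and T cells, had large differences, as did the neutrophil attractant Cxcl2. Ccl4 measured 1037 and 1328 CPM at day 60 and 137 and 124 CPM at day 90 (log2 fold change -3.18 ± 0.33, edgeR adjusted p = 0.124; -1.68 length-adjusted). Ccl3 measured 609 and 546 CPM, then 106 and 81.8 CPM (-2.62 ± 0.31, adjusted p = 0.15). Cxcl2 measured 744 and 819 CPM, then 125 and 123 CPM (-2.65 ± 0.29, adjusted p = 0.139; -2.27 length-adjusted). Ccl2, the main attractant of monocytes, was at lower levels and differed in the same direction (18.5 and 21.9 CPM, then 4.63 and 5.55 CPM; -1.99 ± 0.30, adjusted p = 0.218). Cxcl10, an interferon target that attracts T cells, measured 216 and 169 CPM, then 36.4 and 25.1 CPM (-2.65 ± 0.35, adjusted p = 0.171), while Ccr2, the receptor of Ccl2 on monocytes, overlapped between the days (283 and 137 CPM, then 376 and 179 CPM; 0.40 ± 0.52, adjusted p = 0.705).

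Antigen presentation genes were lower in part. In class I, 7 of the 15 tested genes were lower and 1 (H2-M2) higher (23.7% and 28.2% of all genes), with a median log2 fold change of -0.93, and -0.46 length-adjusted. That median was -0.30 without replicate 2 of day 60 and -0.23 without replicate 1 of day 90. B2m, the light chain shared by class I molecules, measured 7976 and 9882 CPM at day 60 and 2436 and 2576 CPM at day 90 (-1.83 ± 0.32, edgeR adjusted p = 0.233; -0.60 length-adjusted). The immunoproteasome subunit Psmb8 measured 541 and 1001 CPM, then 277 and 370.1 CPM (-1.25 ± 0.41, adjusted p = 0.243). In class II, 7 of 13 genes were lower and 1 (Ciita) higher, with a median of -0.72, and -0.20 length-adjusted; it was -0.35 without replicate 2 of day 60, -1.25 without replicate 1 of day 60 and -1.24 without replicate 2 of day 90. Cd74, the invariant chain that escorts class II molecules, measured 32796 and 65359.5 CPM, then 17878 and 33524 CPM; the libraries overlapped, and both replicate numbers had lower values at day 90 (log2 ratios -0.88 and -0.96). H2-Aa was lower (9224 and 17529 CPM, then 5666 and 7999 CPM; -0.97 ± 0.44, adjusted p = 0.313), and Ciita, the activator of class II genes, was on the higher side (0.38 ± 0.27, adjusted p = 0.486). Class I heavy chains belong to a gene family with like sequences, so their counts are uncertain.

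In the opposite direction, granule genes of neutrophils and their precursors were far higher at day 90. Mpo, Ltf, Elane, Cd177, Ngp and Prtn3 had the 6 highest log2 fold changes of the genes whose log2 CPM averaged 3 or more and whose groups did not overlap. Without TMM scaling, the 13 neutrophil markers in the table summed to 912 and 980 CPM at day 60 and to 4609 and 4178 CPM at day 90. Of these, 8 were higher and 3 lower (28.2% and 23.7% of all genes), with a median log2 fold change of 1.22, and 1.77 length-adjusted. DESeq2 called 7 of them higher (3.09% of all genes) and 0 lower. The list did not stand on 1 side: 8 granule genes were higher, S100a8 and S100a9 overlapped, and Retnlg, Cxcr2 and Csf3r were lower. Ly6g, a defining surface marker, and Mcemp1 were not analysed here.

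Mpo, the myeloperoxidase of primary granules, measured 18.2 and 14.5 CPM at day 60 and 314 and 331 CPM at day 90 (log2 fold change 4.31 ± 0.32, edgeR adjusted p = 0.124; DESeq2 adjusted p = 7.95e-41). Elane, neutrophil elastase of the same granules, measured 11.6 and 8.20 CPM, then 93.6 and 103 CPM (3.32 ± 0.32, adjusted p = 0.124). Prtn3, proteinase 3, measured 4.70 and 4.69 CPM, then 30.2 and 34.3 CPM (2.78 ± 0.28, adjusted p = 0.124). Each of these primary granule genes was separated between the days in both replicate numbers, and each had a larger value after length adjustment (4.45, 4.34 and 3.82).

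Secondary granule genes were higher too. Ltf, lactoferrin, measured 57.4 and 94.8 CPM at day 60 and 877 and 1223 CPM at day 90 (log2 fold change 3.79 ± 0.42, edgeR adjusted p = 0.139). Ngp, neutrophilic granule protein, measured 148 and 115 CPM, then 1114 and 748 CPM (2.83 ± 0.37, adjusted p = 0.171). Camp, a cathelicidin peptide, measured 14.2 and 35.9 CPM, then 86.7 and 116 CPM (2.02 ± 0.51, adjusted p = 0.233). The granule proteases Mmp8 and Mmp9 differed less (1.21 ± 0.29 and 1.22 ± 0.28, both adjusted p = 0.233). The genes named next, which mature neutrophils express, were not higher in the main fit. S100a8, a calcium-binding protein of the cytosol named after its values were seen, measured 67.4 and 165 CPM, then 87.3 and 124 CPM, and its libraries overlapped (-0.14 ± 0.49, adjusted p = 0.901). The chemokine receptor Cxcr2 measured 31.6 and 19.9 CPM, then 15.6 and 10.9 CPM (-0.96 ± 0.36, adjusted p = 0.264). Retnlg measured 83.2 and 181 CPM, then 40.1 and 69.0 CPM (-1.28 ± 0.50, adjusted p = 0.271). Length-adjusted values were 1.73 for S100a8, 1.77 for S100a9 and 0.37 for Retnlg, all with short transcripts, so their direction depends on that choice. Cxcr2 remained negative (-0.90).

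Genes of immature myeloid cells were looked up after these values had been seen. Ctsg, cathepsin G, measured 0.735 and 1.14 CPM at day 60 and 12.5 and 15.3 CPM at day 90 (log2 fold change 3.86 ± 0.40, edgeR adjusted p = 0.124). Ms4a3, a marker of granulocyte-monocyte progenitors, measured 1.21 and 2.70 CPM, then 10.4 and 14.02 CPM (2.62 ± 0.50, adjusted p = 0.233). Myb, a transcription factor of progenitors, had 2 and 10 counts at day 60 and 109 and 787 counts at day 90. Kit and Cebpe were on the same side (1.37 ± 0.35 and 1.66 ± 0.41, both adjusted p = 0.233). The part that other cells in the sorted samples have in these levels was not tested.

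Promoters of the granule genes were searched for TTGCNNAA, a core that C/EBP factors can bind, because the neutrophil markers stood on different sides. It was present on either strand in 6 of 12 neutrophil markers with a promoter, against 1015 of 10624 tested genes (9.55%) and 3142 of 32851 windows (9.56%). It was present in 4 of 7 markers that were higher (Ltf, Ngp, Lcn2 and Mmp8), 1 of 3 that were lower (Retnlg) and 1 of 2 that overlapped (S100a9), too few to compare.
Ltf, chr9:111019191-111019250, plus strand: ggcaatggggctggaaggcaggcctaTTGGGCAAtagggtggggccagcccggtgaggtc
Ngp, chr9:110419748-110419807, plus strand: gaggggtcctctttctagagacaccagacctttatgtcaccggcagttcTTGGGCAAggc
S100a9, chr3:90695912-90695971, minus strand: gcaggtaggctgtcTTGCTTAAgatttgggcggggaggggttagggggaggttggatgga
Capitals mark the match, which lies on the opposite strand in Ltf and Ngp.

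Cell division genes were higher at day 90. Of 30 mitotic genes 26 were higher and 1 (Cenpa) lower, with a median log2 fold change of 1.27, and 1.35 length-adjusted; 20 had an unadjusted edgeR p under 0.05 in the higher direction (8.6% of all genes), and DESeq2 called 13 (3.09% of all genes). Of 30 DNA replication genes 15 were higher and 2 (Gins2 and Rfc4) lower (28.2% and 23.7% of all genes), with a median of 0.52, and 0.39 length-adjusted, that was 0.28 without replicate 2 of day 90. Top2a, the topoisomerase that untangles chromosomes, measured 6.54 and 7.78 CPM at day 60 and 22.1 and 34.9 CPM at day 90 (1.99 ± 0.35, edgeR adjusted p = 0.233). Mki67, the gene of the Ki-67 antigen of cycling cells, measured 7.42 and 3.51 CPM, then 18.6 and 13.3 CPM (1.55 ± 0.46, adjusted p = 0.235). Prc1, which bundles spindle microtubules, measured 2.17 and 2.20 CPM, then 9.29 and 11.6 CPM (2.26 ± 0.34, adjusted p = 0.218). The libraries of these genes did not overlap between the days. Mcm5, part of the replicative helicase, measured 15.7 and 21.0 CPM, then 31.3 and 42.5 CPM (1.01 ± 0.31, adjusted p = 0.237). Granule genes of precursors, which divide, were higher in the same libraries, and which cells the mitotic transcripts came from was not tested.

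The CHR element, TTTGAA, which serves many promoters active in mitosis, was found on either strand in 9 of 26 mitotic genes with a promoter (34.6%), against 1418 of 10624 tested genes (13.3%) and 5252 of 32851 windows (16.0%), and CCAAT in 21 of the 26 (80.8%), against 40.5% of tested genes and 33.8% of windows. Other lists held them as well: the CHR letters stood in 12 of 39 interferon-stimulated genes (30.8%), and CCAAT in 15 of 16 sterol synthesis genes and 15 of 19 genes of the unfolded protein response. Windows of 3 of them are shown with the CHR element in capitals.
Prc1, chr7:80294416-80294475, plus strand: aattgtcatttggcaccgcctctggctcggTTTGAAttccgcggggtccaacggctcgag
Top2a, chr11:99024190-99024249, minus strand: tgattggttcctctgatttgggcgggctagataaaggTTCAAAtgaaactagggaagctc
Ccnb2, chr9:70421689-70421748, minus strand: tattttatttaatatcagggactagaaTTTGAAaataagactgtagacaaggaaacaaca
The element lies on the opposite strand in Top2a, and Ccnb2, the gene of cyclin B2, measured 6.14 and 7.10 CPM at day 60 and 13.5 and 16.7 CPM at day 90.

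Genes that define microglia overlapped between the days for the most part. All 10 microglial markers were tested, and 2 of them were higher and 0 lower. Without TMM scaling they summed to 2241 and 2959 CPM at day 60 and 3243 and 4556 CPM at day 90. Their median log2 fold change was 0.14 with TMM scaling and 0.66 with total-count scaling, so the gap between the sums depends on scaling. That median was 0.41 length-adjusted (0.13 over all genes) and -0.04 without replicate 1 of day 90. Tmem119, a surface protein of resting microglia, measured 180.1 and 95.4 CPM, then 192 and 88.7 CPM (log2 fold change 0.03 ± 0.51, edgeR adjusted p = 0.982). P2ry12, their purinergic receptor, measured 172 and 98.5 CPM, then 186 and 116 CPM (0.16 ± 0.41, adjusted p = 0.855). Sall1, their transcription factor, measured 4.01 and 2.25 CPM, then 4.71 and 3.11 CPM (0.33 ± 0.47, adjusted p = 0.74). In all 3 the replicate numbers differed more than the days. On the longer list of 25 homeostatic genes 9 were higher and 2 lower (28.2% and 23.7% of all genes), with a median of 0.22, and 0.39 length-adjusted, that ran from 0.13 without replicate 2 of day 60 and 0.14 without replicate 1 of day 90 to 0.34 without replicate 1 of day 60 and 0.43 without replicate 2 of day 90. The fractalkine receptor Cx3cr1 measured 226 and 99.7 CPM, then 588 and 249 CPM (1.36 ± 0.59, adjusted p = 0.299).

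Disease-associated genes, which microglia switch on near lesions and plaques, were lower in part. Of 30 genes 16 were lower and 3 (Axl, Ank and Gusb) higher (23.7% and 28.2% of all genes). Their median log2 fold change was -0.87, but -0.16 length-adjusted, and -0.54 without replicate 2 of day 60. Apoe, the lipid carrier, measured 81686 and 88259 CPM at day 60 and 34571 and 34842 CPM at day 90 (-1.29 ± 0.31, edgeR adjusted p = 0.233; -0.54 length-adjusted). Spp1, osteopontin, measured 5254 and 5022 CPM, then 2282 and 2053 CPM (-1.25 ± 0.30, adjusted p = 0.233; -0.57 length-adjusted). Cst7, a protease inhibitor, measured 32.3 and 34.5 CPM, then 17.9 and 21.2 CPM (-0.77 ± 0.26, adjusted p = 0.245), and its length-adjusted value was positive, at 0.30. Other members overlapped at high levels. The glycoprotein gene Gpnmb measured 7416 and 6714 CPM, then 7279 and 7564 CPM (0.07 ± 0.30, adjusted p = 0.916). The lipase Lpl measured 4259.8 and 4454 CPM, then 4093 and 4824 CPM (0.03 ± 0.30, adjusted p = 0.962). The macrophage elastase Mmp12, from the protease list, behaved likewise (2225 and 2997 CPM, then 2120.2 and 2774 CPM; -0.09 ± 0.34, adjusted p = 0.901). Trem2, the receptor behind this state, overlapped (1189 and 3254 CPM, then 786 and 1437 CPM; -0.999 ± 0.59, adjusted p = 0.407). The growth factor Igf1 was lower (334 and 388 CPM, then 238 and 209 CPM; -0.69 ± 0.28, adjusted p = 0.283).

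**Figure D4:**
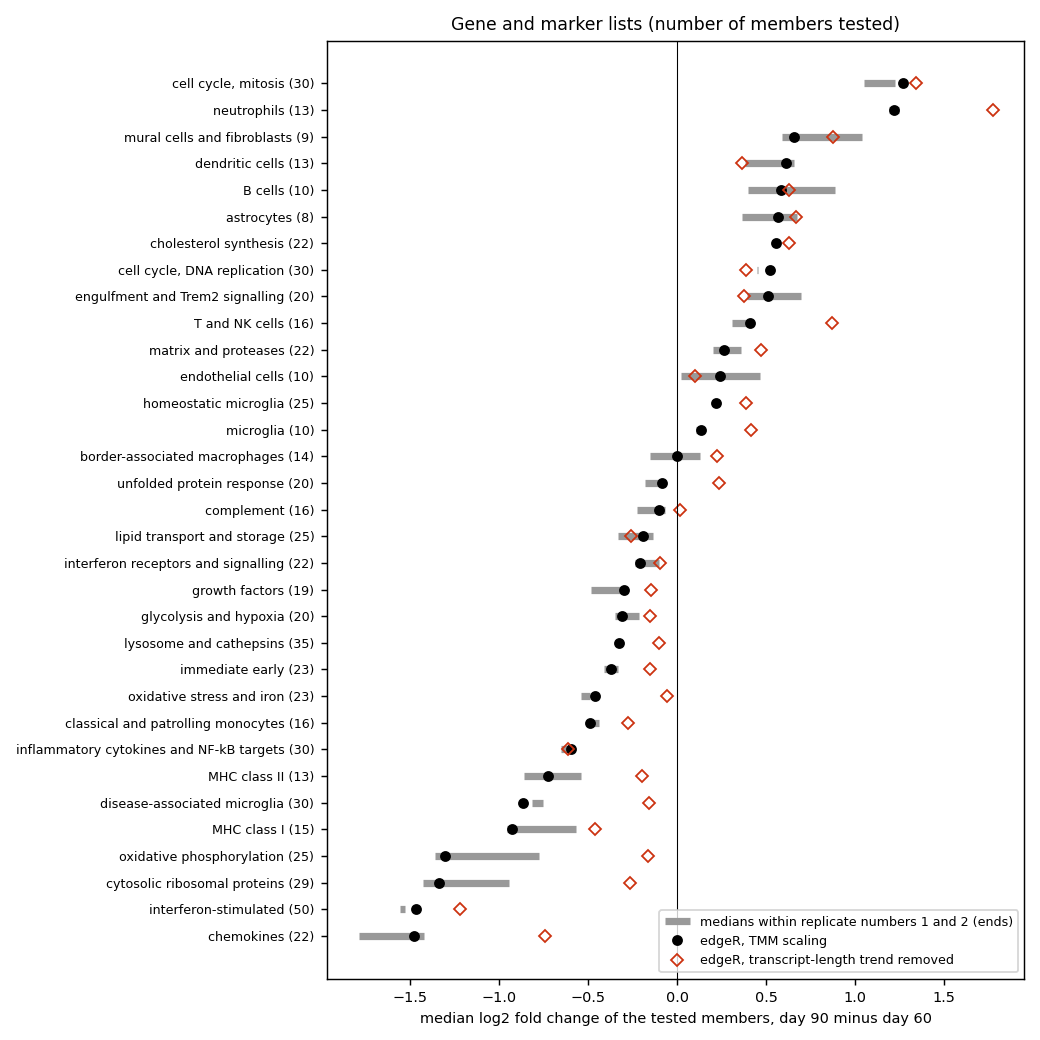
Median log2 fold change of day 90 minus day 60 for each list with at least 8 tested members (number in brackets); black points are the main edgeR fit, red diamonds the length-adjusted fit, and grey bars run between the medians within replicate numbers 1 and 2. The interferon-stimulated, mitosis and neutrophil lists stay far from 0 in both fits, while the disease-associated, oxidative phosphorylation and ribosomal lists come close to 0 when length is adjusted for.

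Genes of engulfment and Trem2 signalling were higher in part. Of 20 tested genes of this list 13 were higher and 3 lower (28.2% and 23.7% of all genes). Their median log2 fold change was 0.51, and 0.38 length-adjusted. In length, 16 of the 20 were at or above the median. Of 3829 such genes whose log2 CPM averaged 3 or more, 1500 were higher and 618 lower. Mfge8, which bridges phosphatidylserine on dying cells to integrins, measured 248 and 275 CPM at day 60 and 859 and 982 CPM at day 90 (1.82 ± 0.29, edgeR adjusted p = 0.233; DESeq2 adjusted p = 4.36e-07). The receptor kinases Mertk and Axl were on the same side by smaller amounts (0.53 ± 0.28 and 0.54 ± 0.29). Tyrobp, the adaptor of Trem2, was lower (714 and 1752 CPM, then 297 and 567 CPM; -1.51 ± 0.57, adjusted p = 0.26), and was at 0.14 length-adjusted.

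Complement genes stood on both sides, 7 of 16 lower and 3 (Itgam, Itgb2 and Serping1) higher (23.7% and 28.2% of all genes). The sign of their median (-0.10) turned with upper-quartile or total-count scaling and with length adjustment, and the median was -0.29 without replicate 1 of day 60, -0.02 without replicate 2 of day 60 and -0.64 without replicate 2 of day 90. The subunit gene C1qb measured 8726 and 8222 CPM at day 60 and 4619.8 and 3818 CPM at day 90 (log2 fold change -1.01 ± 0.31, edgeR adjusted p = 0.239), but was at -0.01 length-adjusted. Cfb, factor B of the alternative pathway, was lower in both fits (-1.91 ± 0.41, adjusted p = 0.233; -1.76 length-adjusted), although 81.1% of its sampled 50-base words also occur in Gm20547. C3, on which all complement pathways converge, overlapped (80.9 and 119.9 CPM, then 70.6 and 146 CPM; 0.11 ± 0.45, adjusted p = 0.912).

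Ribosomal protein and respiratory chain genes were lower in part, and their medians came near 0 when length was adjusted for. Of 29 cytosolic ribosomal protein genes 14 were lower and 0 higher (23.7% and 28.2% of all genes), with a median log2 fold change of -1.34, and -0.27 length-adjusted. The 2 whose longest annotated transcript was above the median length had a median of -1.59, against -1.32 for the other 27. That transcript need not be the one expressed. Without 1 library each the median of the list was -0.30 (replicate 2 of day 60), -0.88 (replicate 1 of day 90), -1.78 (replicate 1 of day 60) or -1.999 (replicate 2 of day 90). Of 25 oxidative phosphorylation genes, all shorter than the median length, 16 were lower and 1 (Sdha) higher, with a median of -1.31, and -0.16 length-adjusted, that was -0.57 without replicate 2 of day 60. Rps14, of the small ribosomal subunit, measured 98.6 and 274 CPM at day 60 and 41.5 and 66.0 CPM at day 90 (-1.79 ± 0.57, edgeR adjusted p = 0.24; -0.59 length-adjusted). Ndufa1, of respiratory complex I, measured 13.5 and 20.1 CPM, then 4.81 and 4.51 CPM (-1.85 ± 0.33, adjusted p = 0.233), and was at 0.10 length-adjusted. Several of these genes have processed pseudogenes with like sequence, so their counts are uncertain.

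Sterol synthesis genes stood on the other side. Of 22 tested genes 12 were higher and 3 (Pmvk, Nsdhl and Ebp) lower (28.2% and 23.7% of all genes). Their median log2 fold change was 0.56, and 0.63 length-adjusted, and it was 0.88 without replicate 2 of day 60. Sqle, squalene epoxidase, measured 3.82 and 2.51 CPM at day 60 and 8.95 and 10.2 CPM at day 90 (1.60 ± 0.37, edgeR adjusted p = 0.233). Srebf2, the transcription factor that drives the pathway, measured 42.05 and 37.5 CPM, then 61.2 and 57.7 CPM (0.58 ± 0.26, adjusted p = 0.305). Carriers of lipid were lower: Apoc2 measured 137 and 241 CPM, then 24.2 and 32.1 CPM (-2.74 ± 0.41, adjusted p = 0.218; -1.30 length-adjusted), and Plin2, which coats lipid droplets, measured 1328 and 1434 CPM, then 564 and 582 CPM (-1.27 ± 0.29, adjusted p = 0.233; -0.80 length-adjusted).

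Markers of other macrophages stood on both sides. Of 14 markers of border-associated macrophages 4 were higher and 6 lower, shares near or above those of all genes (28.2% and 23.7%). Their median log2 fold change of 0.00 had no stable sign: it was 0.13 with upper-quartile and 0.52 with total-count scaling, 0.22 length-adjusted, 0.12 without replicate 2 of day 60, 0.16 without replicate 1 of day 90, -0.12 without replicate 1 of day 60 and -0.92 without replicate 2 of day 90. The mannose receptor Mrc1 measured 96.2 and 106 CPM at day 60 and 213 and 288 CPM at day 90 (1.31 ± 0.30, edgeR adjusted p = 0.233), and the haemoglobin receptor Cd163 measured 2.90 and 2.11 CPM, then 7.74 and 5.46 CPM (1.40 ± 0.40, adjusted p = 0.234). Ms4a7 stood on the other side (1279 and 2497 CPM, then 598 and 900.4 CPM; -1.33 ± 0.45, adjusted p = 0.245). Of 16 monocyte markers 7 were lower and 2 higher, with a median of -0.49, and -0.28 length-adjusted, that turned to 0.03 with total-count scaling and was -0.91 without replicate 2 of day 90. Ly6c2, which marks classical monocytes, measured 161 and 284 CPM, then 55.6 and 73.5 CPM (-1.79 ± 0.39, adjusted p = 0.233). Plac8 measured 127 and 271 CPM, then 25.6 and 32.7 CPM (-2.77 ± 0.46, adjusted p = 0.233). In both genes the day 90 libraries lay below the day 60 libraries.

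Matrix genes included collagens of fibroblasts. Of 22 tested matrix and protease genes 11 were higher and 3 lower (28.2% and 23.7% of all genes). Their median log2 fold change was 0.26, and 0.47 length-adjusted, and it was 0.42 without replicate 2 of day 60. Col1a2, a chain of type I collagen, measured 10.6 and 16.1 CPM at day 60 and 39.97 and 81.1 CPM at day 90 (2.18 ± 0.45, edgeR adjusted p = 0.233). Col3a1 of type III collagen measured 3.86 and 4.90 CPM, then 13.3 and 27.5 CPM (2.22 ± 0.44, adjusted p = 0.233). The day 90 libraries lay above the day 60 libraries in both genes. Of the 9 markers of mural cells and fibroblasts 5 were higher (Rgs5, Tagln, Kcnj8, Col1a1 and Col1a2), 1 was lower (Acta2) and 3 overlapped (Pdgfrb, Dcn and Lum), with a median of 0.66, and 0.88 length-adjusted. That median was 0.39 without replicate 2 of day 60, 0.32 without replicate 1 of day 90 and 1.42 without replicate 1 of day 60. Without TMM scaling, the 9 markers summed to 112 and 1434 CPM at day 60 and 219 and 1349 CPM at day 90. The high sums of replicate 2 come largely from Pdgfrb (1932 and 1033 TMM-scaled CPM). The part of such cells in the collagen levels was not tested.

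Lymphocyte markers were higher in part. Of 10 tested B cell markers 6 were higher and 0 lower (28.2% and 23.7% of all genes), with a median log2 fold change of 0.59 that was 0.34 without replicate 1 of day 60 and 0.91 without replicate 2 of day 60. Of 16 tested markers of T and NK cells 7 were higher and 1 (Gzmb) lower, with a median of 0.41 that was 0.02 without replicate 2 of day 90 and 0.62 without replicate 2 of day 60. Without TMM scaling, the B cell markers summed to 185 and 179.7 CPM at day 60 and 326 and 303 CPM at day 90. Those of T and NK cells summed to 292 and 203 CPM, then 446 and 364 CPM. With total-count scaling the medians of the B cell and the T and NK cell lists were 1.17 and 0.96, so the size of these gaps depends on scaling. Ms4a1, the CD20 antigen of B cells, measured 27.8 and 18.3 CPM at day 60 and 56.0 and 41.5 CPM at day 90 (1.08 ± 0.34, edgeR adjusted p = 0.239). Cd79a, part of the B cell receptor and more abundant, overlapped (59.4 and 95.9 CPM, then 60.5 and 85.9 CPM). Cd3e, of the T cell receptor complex, measured 8.86 and 8.16 CPM, then 16.0 and 13.8 CPM (0.81 ± 0.28, adjusted p = 0.247). The other tested chains of that complex on the list overlapped between the days. Slc4a1, the anion exchanger of red cells, had 0 counts in all 4 libraries.

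The most abundant members of a list did not always stand where most members did. Over all 36 lists the 2 most abundant members made up 68 genes. Of these, 26 were lower and 10 higher (23.7% and 28.2% of all genes), and 32 overlapped. Cenpa, the centromeric histone and the mitotic gene with the highest mean CPM over the 4 libraries, was lower (21.98 and 28.1 CPM, then 17.7 and 15.4 CPM). Fth1, ferritin heavy chain, stood with the larger side of its list (23160 and 41336 CPM, then 8382 and 13886 CPM). Of the 23 oxidative stress and iron genes on that list, 10 were lower and 4 higher (23.7% and 28.2% of all genes). The panel genes Fos, an immediate early factor, and Hmox1, haem oxygenase, were both lower, by -0.62 ± 0.34 and -0.62 ± 0.26 on the log2 scale (edgeR adjusted p = 0.381 and 0.294). Fos measured 2343 and 1851 CPM at day 60 and 1592 and 1142 CPM at day 90, and Hmox1 234 and 237 CPM, then 150.4 and 157 CPM; Hmox1 was at 0.02 length-adjusted.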

How the data were processed

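Whole-number read counts per gene, deposited by the authors as 1 table, were used for 4 libraries; the submitters' processing notes name HTSeq 0.6.1, Bowtie2 2.3.4.2 and the build mm9. The sources used here give no annotation, strand setting or handling of multiply mapped reads, so overlapping, antisense and near-identical genes cannot be told apart. All 14 single-library files held the same counts as the table. Of 14084 genes, edgeR's filterByExpr removed 749 and left 13335.

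The analysis ran in R 4.3.3; edgeR 4.0.16 gave the main test (TMM scaling, robust quasi-likelihood fit, a mean per day, no block, 2 residual degrees of freedom), with DESeq2 1.42.0 and limma 3.58.1 as alternatives. Calls needed a Benjamini-Hochberg adjusted p under 0.05 over all genes tested. CPM of genes are TMM-scaled and sums over lists are not; log2 ratios within replicate numbers use a prior count of 2. SE is the log2 fold change divided by the square root of F. The fits were tested on simulated data. The libraries of a day differed by far more than sampling noise (chi-square per degree of freedom 554 and 456).

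The comparison, the 23 gene lists and the 13 marker lists were chosen with earlier results of these data known. The rule for named genes took the called genes of largest size overall and per list, a panel of 30 genes, and the 2 most abundant members of lists without calls. As no gene was called, the same ranking without the call was used, a change made after values were seen; a few further genes are named as such or stand with a printed promoter. Promoters came from RefSeq (GRCm38.p6) and transcript lengths from GENCODE, the longest transcript of each gene. The motifs and printed windows were chosen after values were seen. Some genes of the panel and lists are not reported here.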

Additional observations from a re-analysis of the deposited data

How the results depend on the processing

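In edgeR 0 genes were called with RLE, upper-quartile or total-count scaling, either other filter, a minimum fold change, all 14 libraries with or without a block, and the length adjustment. DESeq2 called 1133, and the range without 1 library each was 17 to 1163 in edgeR. With the replicate number as a block, edgeR called 5922 genes (2767 higher, 3155 lower), with 1 residual degree of freedom, and 1126 of the DESeq2 calls were among them; the block gave 4981 calls in DESeq2, 7297 in limma-voom and 5199 with the length adjustment. Same-numbered libraries deviated together from their day's mean (correlation 0.70 across genes), but the labels give no shared animal or batch, so what a number marks is not known, and the test without the block is the one reported. The all-gene median moved from 0.04 to 0.175 with upper-quartile scaling. Genes higher in both day 90 libraries numbered 6166 with total-count scaling (lower: 1286), against 4354 and 2600 with upper-quartile scaling, so the higher share was 54.3% with TMM, 62.6% with upper-quartile and 82.7% with total-count scaling. Without 1 library each, 4985 to 6054 genes were higher and 4387 to 5111 lower. The correlation between replicate numbers was 0.91 at a mean log2 CPM of 3 or more. Of the 125 genes with values or names in the text, 97 kept their sign in all alternatives and 28 did not; the cause was not tested except where the setting names it. The sign turned with the length adjustment for Acta2 (0.11), C3 (-0.16), Cd79a (0.66), Cst7 (0.30), Gpnmb (-0.0036), Gzmb (0.15), Hmox1 (0.022), Lpl (-0.11), Ndufa1 (0.0996), Nsdhl (0.22), Retnlg (0.37), Rfc4 (0.11), S100a8 (1.73), S100a9 (1.77) and Tyrobp (0.14), and with that and the block for Acta2 (0.13), C1qb (0.0017), C3 (-0.21), Cd79a (0.66), Cst7 (0.34), Gpnmb (-0.0031), Gzmb (0.13), Hmox1 (0.033), Lpl (-0.11), Ndufa1 (0.078), Nsdhl (0.23), Retnlg (0.36), Rfc4 (0.11), S100a8 (1.73), S100a9 (1.78) and Tyrobp (0.13). It turned with upper-quartile scaling for Cd79a (0.060), Mmp12 (0.046), Nsdhl (0.011), S100a8 (0.026) and S100a9 (0.14), and with total-count scaling for Acta2 (0.25), Cd79a (0.48), Csf3r (0.30), Dcn (0.17), Irf9 (0.041), Mmp12 (0.46), Nsdhl (0.40), S100a8 (0.48), S100a9 (0.58) and Stat2 (0.0047). It turned for Lpl (-0.0049) and Tmem119 (-0.0096) in DESeq2, for Lpl (-0.0050) and Tmem119 (-0.0096) with RLE scaling, for S100a9 in limma-voom (0.069), and with the block for S100a9 (0.063) and Tmem119 (-0.0074) in edgeR, S100a9 (0.062) in all 14 libraries, Lpl (-0.0096), S100a9 (0.025) and Tmem119 (-0.046) in DESeq2, and S100a9 (0.018) and Tmem119 (-0.015) in limma-voom. Without 1 library each, values spanned -0.51 to 0.54 for C3, -0.23 to 1.05 for Ccr2, -0.37 to 0.31 for Cd79a, -0.091 to 0.15 for Lpl, -7.08 to 4.41 for Ly6c1, -0.30 to 0.14 for Mmp12, -0.21 to 0.65 for P2ry12, -7.34 to 7.44 for Pdgfrb, -4.80 to 1.45 for Phf11b, -0.62 to 0.65 for S100a8, -0.50 to 0.74 for S100a9, -0.028 to 0.82 for Sall1 and -0.64 to 0.59 for Tmem119. Depth limits genes such as Myb, which had 2 counts in the shallower day 60 library.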

Other observations

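Genes of stress and growth factors stood on both sides at day 90. Of 20 genes of the unfolded protein response 6 were higher and 4 lower (28.2% and 23.7% of all genes), with a median log2 fold change of -0.09, and 0.24 length-adjusted. Of 19 growth factors 9 were lower and 4 higher, with a median of -0.30 that turned to 0.23 with total-count scaling. The genes named next are among the lower ones. Gdf15, a cytokine of cell stress, measured 397 and 317 CPM at day 60 and 112 and 64.6 CPM at day 90 (log2 fold change -2.02 ± 0.38, edgeR adjusted p = 0.233). Ddit3, a factor of the unfolded protein response, measured 49.9 and 50.3 CPM, then 17.5 and 19.0 CPM (-1.46 ± 0.25, adjusted p = 0.233; -0.37 length-adjusted). Vegfa, which drives vessel growth, measured 78.8 and 70.5 CPM, then 31.3 and 39.3 CPM (-1.08 ± 0.28, adjusted p = 0.233; -1.11 length-adjusted). Among genes on no list, Ly6i measured 119 and 164 CPM, then 10.4 and 10.1 CPM (-3.79 ± 0.33, adjusted p = 0.124), Arg2, an arginase of mitochondria, 29.5 and 49.1 CPM, then 4.89 and 5.19 CPM (-2.96 ± 0.36, adjusted p = 0.15), and Mamdc2 21.7 and 15.9 CPM, then 87.8 and 91.6 CPM (2.25 ± 0.30, adjusted p = 0.18).

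Some genes differed more between the replicate numbers than between the days. Pdgfrb, a receptor of pericytes and fibroblasts, measured 2.98 and 5.95 CPM in replicate 1 of day 60 and day 90 and 1932 and 1033 CPM in replicate 2. Ly6c1, common in endothelial cells, measured 1.36 and 1.11 CPM in replicate 1 and 301 and 57.1 CPM in replicate 2. The interferon-stimulated gene Phf11b measured 127 and 38.9 CPM in replicate 1 and 2048 and 656 CPM in replicate 2. Within both numbers Phf11b was lower at day 90, by similar ratios (log2 ratios -1.70 and -1.64). In each of these genes the spread between replicates was larger than the gap between days.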
